A study of Mus musculus with 12 samples.

Results

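The 10 genes described here are 9 genes for proteins of the secondary (specific) and tertiary (gelatinase) granules of neutrophils and the neutrophil enzyme gene Padi4. They are Ltf, Camp, Ngp, Lcn2, Chil3, Mmp8, Mmp9, Cd177, Olfm4 and Padi4. The members were chosen by symbol among the 24421 entries of the deposited expression table. All 10 were found, and all 10 passed the filter on low values that left 11767 genes for testing. The study sequenced marrow RNA of C57BL/6 mice in 4 groups of 3 samples, 12 in all. Young mice were either brain-injured (Young-TBI, traumatic brain injury) or controls (Young-CON), and aged mice likewise (Aged-TBI and Aged-CON). Marrow was taken on day 3 after the injury. The sources used here give no age in weeks, no method of injury, no sham procedure for the controls and no sorting of cells. They also do not give the number of animals behind each sample. A p-value here therefore describes sample-to-sample spread, part of which may be technical.

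A neutrophil builds its granules in sequence while it matures in the marrow. Primary granules, with myeloperoxidase and elastase, are filled at the promyelocyte stage, specific granules at the myelocyte and metamyelocyte stages, and gelatinase granules in band cells. The transcription factor C/EBP epsilon is required for the secondary granule genes, and marrow is the place where these transcripts are abundant, since circulating neutrophils carry the proteins and little of the RNA. Padi4 is not a granule protein: it is the enzyme that converts arginine to citrulline in histones when neutrophils release chromatin.

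RefSeq promoter windows on GRCm38.p6, from 250 bases before to 50 bases after the transcription start, were found for 9 of the 10 genes. The exception was Mmp9. The windows of 5 genes are shown. Olfm4 differed with age, and Mmp8 had the most negative log2 changes with injury. Ltf, Ngp and Lcn2 are abundant genes of the secondary granule. Camp, more abundant than Lcn2 and Ltf at 4387 FPKM, is not shown. Each is written 5′ to 3′ on the gene's own strand. Capitals mark matches on either strand to TTNNGCAA, a core of sites bound by C/EBP proteins, or to GAGGAA, a core of sites bound by ETS proteins such as PU.1. Both motifs were picked after the promoters had been looked at.
Olfm4 (chr14:80000052-80000351, plus strand): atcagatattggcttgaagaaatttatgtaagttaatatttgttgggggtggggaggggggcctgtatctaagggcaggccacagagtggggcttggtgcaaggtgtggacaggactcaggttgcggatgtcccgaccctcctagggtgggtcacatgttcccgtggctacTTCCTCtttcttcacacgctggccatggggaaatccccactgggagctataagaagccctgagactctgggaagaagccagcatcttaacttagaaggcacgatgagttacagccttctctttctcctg
Ltf (chr9:111019042-111019341, plus strand): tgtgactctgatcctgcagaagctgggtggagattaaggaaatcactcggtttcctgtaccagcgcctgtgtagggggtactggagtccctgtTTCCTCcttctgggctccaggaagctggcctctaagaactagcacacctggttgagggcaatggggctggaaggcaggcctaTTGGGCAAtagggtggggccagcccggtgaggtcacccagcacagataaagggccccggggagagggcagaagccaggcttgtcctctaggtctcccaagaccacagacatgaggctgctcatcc
Ngp (chr9:110419558-110419857, plus strand): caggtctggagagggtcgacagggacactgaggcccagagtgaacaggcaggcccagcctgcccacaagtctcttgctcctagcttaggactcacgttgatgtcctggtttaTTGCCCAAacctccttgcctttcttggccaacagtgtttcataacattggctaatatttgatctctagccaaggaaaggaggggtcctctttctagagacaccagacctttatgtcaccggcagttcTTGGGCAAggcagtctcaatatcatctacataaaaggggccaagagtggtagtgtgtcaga
Lcn2 (chr2:32387690-32387989, minus strand): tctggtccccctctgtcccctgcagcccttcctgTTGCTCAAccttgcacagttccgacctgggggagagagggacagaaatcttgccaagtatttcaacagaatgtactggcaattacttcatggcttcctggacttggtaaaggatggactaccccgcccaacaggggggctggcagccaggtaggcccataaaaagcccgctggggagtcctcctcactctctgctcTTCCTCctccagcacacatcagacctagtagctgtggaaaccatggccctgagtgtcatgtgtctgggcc
Mmp8 (chr9:7558179-7558478, plus strand): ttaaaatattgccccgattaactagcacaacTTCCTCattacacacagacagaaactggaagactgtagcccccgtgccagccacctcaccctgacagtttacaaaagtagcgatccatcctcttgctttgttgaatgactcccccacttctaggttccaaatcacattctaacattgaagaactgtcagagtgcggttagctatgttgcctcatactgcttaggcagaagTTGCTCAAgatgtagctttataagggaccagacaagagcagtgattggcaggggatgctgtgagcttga
The motif TTNNGCAA was found in 4 of the 9 windows (Ltf, Ngp, Lcn2 and Mmp8), against 10.8% of 32851 RefSeq windows of the same length. GAGGAA was found in 5 of the 9 (Lcn2, Cd177, Mmp8, Ltf and Olfm4), against 28.3% of all windows. Every window shown held a match. Of the windows not shown, that of Cd177 held GAGGAA, and those of Camp, Chil3 and Padi4 held neither motif. The windows shown are therefore not typical of the members. The 2 motifs did not overlap in any of the 9 windows. A match describes letters in the window, and it was not tested for binding. The window of Olfm4 held a GAGGAA match on the reverse strand and no TTNNGCAA match. It lies inside the interval that GENCODE M21 gives for the gene, chr14:79984081-80023139 on the plus strand, which begins further upstream and overlaps the lincRNA Gm6999 on the same strand. Fragments of Gm6999 cannot be told apart from those of Olfm4 where the 2 overlap, and Gm6999 was not tested. The window of Lcn2 also lies inside the GENCODE M21 interval of its gene, chr2:32384633-32388252 on the minus strand, which begins further upstream. In GENCODE M21, 4 of the 10 genes (Ltf, Camp, Ngp and Mmp8) are on chromosome 9.

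Expression was deposited as FPKM, a fragment count corrected for transcript length and for sequencing depth, so levels can be compared between genes. The samples held 12.3 to 15.9 M recovered fragments. The members were covered by 1021 fragments (Olfm4, in its lowest sample) to 220971 (Ngp, in its highest), so counting error was at most 3.13% for Olfm4 and at most 1.63% for each of the other genes. The libraries differed in red cell transcripts within a group. The mean log2 level of 13 erythroid markers was 7.52 in Aged-CON 1, against 6.68 and 6.59 in the other Aged-CON samples. It was 6.33 in Young-CON 2, against 7.36 and 7.17 in the other Young-CON samples. None of these markers was listed at 0 in any sample. Neutrophil transcripts were abundant in every sample: 9 markers of mature neutrophils summed to between 39653 and 66020 FPKM. In bulk marrow, fewer cells of a type and less RNA per cell cannot be told apart.

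Ranked by mean FPKM over the 12 samples, the members ran from Ngp, neutrophilic granule protein, at 9577 FPKM down to Olfm4 at 100.3 FPKM. Ngp was the 3rd highest of all entries. Camp, the cathelicidin antimicrobial peptide, averaged 4387 FPKM and ranked 6th. Lcn2, the siderophore-binding lipocalin, averaged 3807 FPKM and ranked 7th, and Ltf, the iron-binding lactoferrin, averaged 2722 FPKM and ranked 9th. Chil3, the chitinase-like protein Ym1, averaged 1918 FPKM. Chil3 has a near-identical paralog, Chil4, so its value depends on how shared fragments were assigned. The gelatinase Mmp9 averaged 674 FPKM, the GPI-anchored surface protein Cd177 averaged 582 FPKM and the neutrophil collagenase Mmp8 averaged 541 FPKM. Padi4 averaged 124 FPKM and Olfm4, olfactomedin 4, a glycoprotein found in a subset of neutrophils, was lowest. The members together held 4.32% to 6.08% of the FPKM sum of a sample. The highest sample stood 3.40 times above the lowest for Olfm4, and 1.53 to 1.84 times above it for each of the other 9 genes. The neighbours Mmp9, Cd177 and Mmp8 overlapped in level: their ranges over the 12 samples were 539 to 940, 473 to 733 and 438 to 699 FPKM. Padi4 and Olfm4 also overlapped, at 104 to 167 and 46.4 to 158 FPKM.

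**Figure D1:**
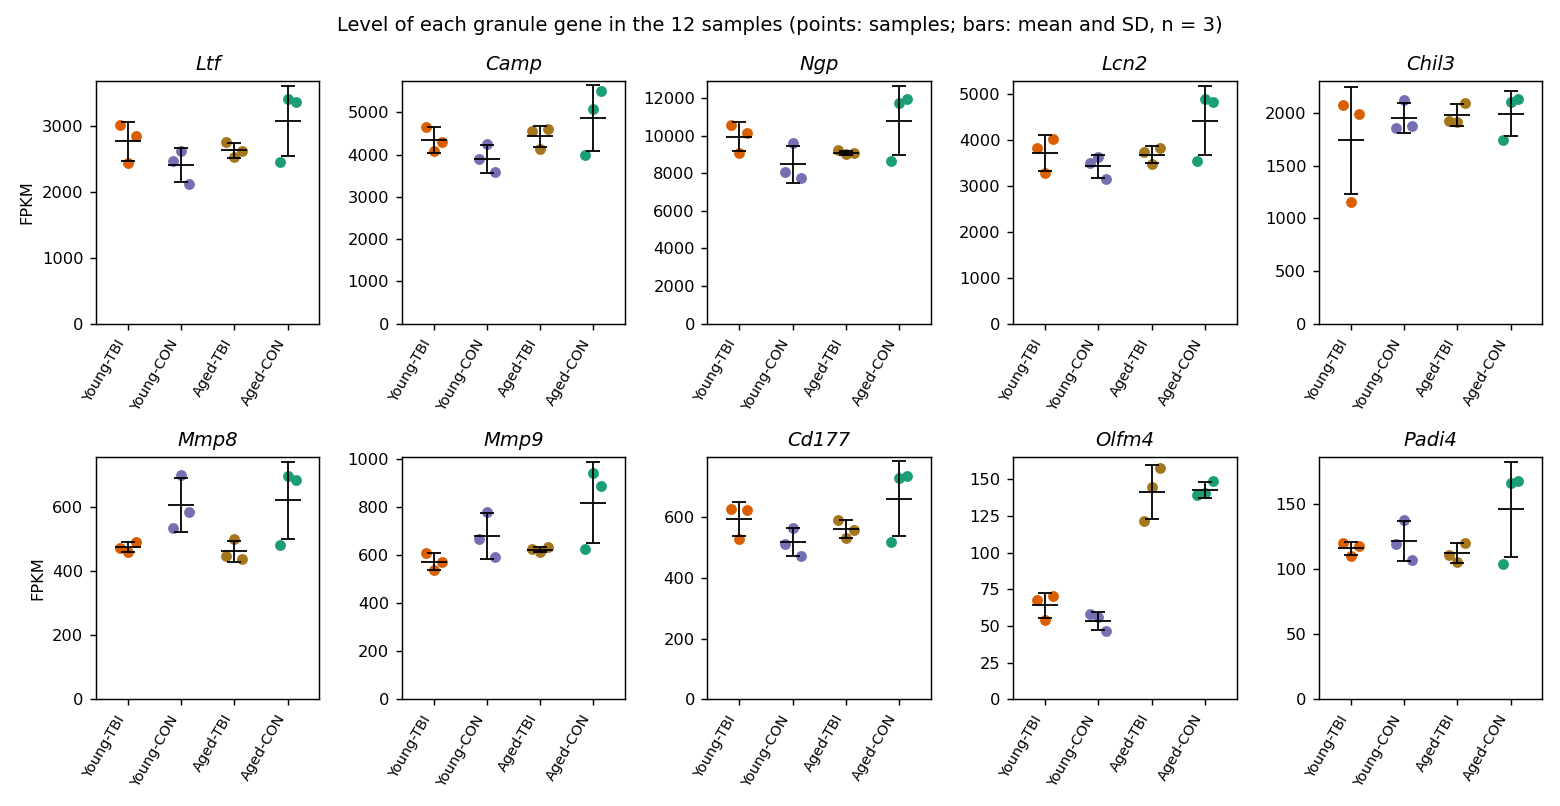
FPKM of each granule gene in the 12 samples, with 1 panel per gene, linear axes starting at 0, points for samples and bars for the group mean and SD (n = 3). Olfm4 separates by age, with every aged sample between 122 and 158 FPKM and every young sample between 46.4 and 70.2 FPKM. In the other panels Aged-CON 1 lies below the mean of the 12 samples, and Aged-CON 2 and 3 lie above it.

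Olfm4 was the member that differed with age, and it was higher in aged marrow with and without injury. Its FPKM was 139, 140 and 149 in Aged-CON, against 57.9, 55.8 and 46.4 in Young-CON. It was 122, 145 and 158 in Aged-TBI, against 67.7, 54.1 and 70.2 in Young-TBI. All 6 aged samples lay above all 6 young samples. The share of all genes that separate in this way was not counted. By group, 20.4% of all genes did not overlap between the controls, and 40% did not between the injured mice. The means were 143 ± 5.16 FPKM in Aged-CON and 53.4 ± 6.12 in Young-CON, and 141 ± 18.3 in Aged-TBI and 64.0 ± 8.66 in Young-TBI (SD, n = 3 each).

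Olfm4 rose by 1.41 on the log2 scale in Aged-CON relative to Young-CON (SE 0.12, 95% interval 1.15 to 1.67), a ratio of 2.65, with an adjusted p of 3.66e-05 in limma. It was the only member called there, 1 of 10, against 4.98% of all genes tested. Olfm4 also rose by 1.13 in Aged-TBI relative to Young-TBI (SE 0.12, 95% interval 0.87 to 1.39), a ratio of 2.19, with an adjusted p of 0.000508. It was again the only member called, against 9.9% of all genes. In the comparison of controls 29 genes had a smaller p than Olfm4, and in the comparison of injured mice 20 did. Both calls held in each of the 25 alternative settings tried, between 1.31 and 1.50 for the controls and between 1.02 and 1.24 for the injured mice.

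Olfm4 did not pass the test for injury. Its log2 change was 0.26 in Young-TBI relative to Young-CON (95% interval -0.01 to 0.52, adjusted p 0.262) and -0.02 in Aged-TBI relative to Aged-CON (95% interval -0.28 to 0.24, adjusted p 0.936). The difference between these changes was -0.28 (95% interval -0.65 to 0.10, adjusted p 0.379). The effect of age averaged over injury, a contrast added after the values of the members were seen, was 1.27 (SE 0.08, adjusted p 3.26e-06), and Olfm4 was the only member called, against 10% of all genes. It shares all its samples with the comparisons above and is no independent support.

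Other cell types also differed between aged and young marrow. B lineage transcripts fell in aged controls: 9 of 9 markers were called lower, and their summed level was 138 to 185 FPKM in Aged-CON and 511 to 703 FPKM in Young-CON. After injury 8 of 9 fell, with a sum of 115 to 128 FPKM in Aged-TBI and 222 to 321 FPKM in Young-TBI. Basophil and mast cell markers, 4 genes, summed to 153 to 218 FPKM in Aged-CON and 110 to 132 FPKM in Young-CON, and 1 of them was called higher. After injury they summed to 136 to 162 FPKM in Aged-TBI and 67.8 to 80.3 FPKM in Young-TBI, with 3 called higher. Of 9 monocyte and macrophage markers 3 fell in Aged-TBI relative to Young-TBI, with sums of 1197 to 1266 FPKM in Aged-TBI and 1732 to 1931 FPKM in Young-TBI. None of these markers was listed at 0 in any sample, and their part in the difference in Olfm4 was not tested. Erythroid markers summed to 1886 to 3641 FPKM in Aged-CON and 1560 to 3311 FPKM in Young-CON, with 0 of 13 called. After injury they summed to 4141 to 4382 FPKM in Aged-TBI and 1790 to 2558 FPKM in Young-TBI, with 2 of 13 called higher. With the mean erythroid level as a covariate, the log2 change of Olfm4 was 1.41 in Aged-CON relative to Young-CON. It was 1.21 in Aged-TBI relative to Young-TBI. Every Aged-TBI sample lay above every Young-TBI sample in erythroid level, so the covariate and age cannot be told apart after injury.

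**Figure D2:**
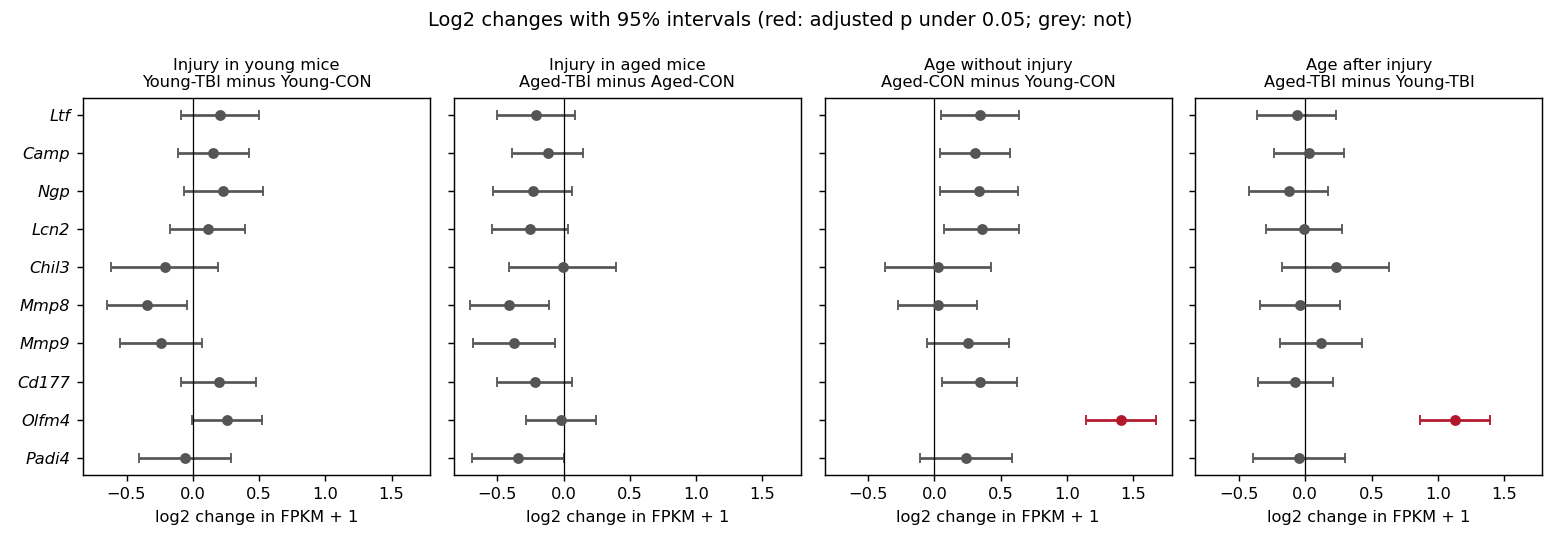
Log2 change of each granule gene in 4 comparisons, with 95% intervals. Red points passed an adjusted p of 0.05 and grey points did not; Olfm4 in the comparisons by age, at 1.41 and 1.13, is the only red point.

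In young mice, injury changed none of the 10 members at an adjusted p under 0.05, against 5.15% of all genes tested. Of the members, 6 had positive and 4 had negative log2 changes, with a median of 0.13 against -0.02 over all genes, and 1 had an unadjusted p under 0.05. By the same unadjusted limit 2369 of 11767 genes passed (20.1%). The secondary granule genes had small positive values. Ngp had 10567, 9093 and 10155 FPKM in Young-TBI, against 8088, 9608 and 7768 in Young-CON, and the groups overlapped. Its log2 change was 0.23 (95% interval -0.07 to 0.53, adjusted p 0.379). Ltf had 3022, 2443 and 2844 FPKM in Young-TBI, against 2476, 2620 and 2121 in Young-CON, a log2 change of 0.20 (95% interval -0.09 to 0.50, adjusted p 0.446). Camp (0.16), Lcn2 (0.11) and Cd177 (0.20) also had positive log2 changes that did not pass. Chil3 had 2076, 1158 and 1993 FPKM in Young-TBI, against 1863, 2122 and 1878 in Young-CON. The lowest Chil3 value of all 12 samples was that of Young-TBI 2, and the change was -0.21 (95% interval -0.61 to 0.19). Without that sample it was 0.06, so 1 sample sets its sign.

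The collagenase Mmp8 had the largest negative value in young mice. It measured 471, 460 and 491 FPKM in Young-TBI, against 535, 699 and 584 in Young-CON. The groups did not overlap, which was true of 1 member and of 27.9% of all genes tested. The means were 474 ± 15.6 FPKM in Young-TBI and 606 ± 84.4 in Young-CON (SD, n = 3 each). The log2 change was -0.35 (95% interval -0.65 to -0.05), with an adjusted p of 0.181, so it was not called. It stayed uncalled in 22 of the 25 alternative settings, with an adjusted p up to 0.418. Aged-CON 1 is not in this comparison but shares its estimate of spread. Without Aged-CON 1 the adjusted p was 0.037, with 970 of all genes called against 606 in the main fit. With the erythroid covariate the change was -0.39 with an adjusted p of 0.00714, and 1286 of all genes were called. With sample weights it was -0.31 with an adjusted p of 0.0365, and 1595 of all genes were called. Mmp9, the other metalloproteinase, had 609, 539 and 571 FPKM in Young-TBI, against 666, 782 and 592 in Young-CON. Its groups overlapped, and the log2 change was -0.24 (95% interval -0.55 to 0.07, adjusted p 0.386). Of the B lineage markers 8 of 9 were called lower in the same comparison, with sums of 222 to 321 FPKM in Young-TBI and 511 to 703 FPKM in Young-CON. Basophil and mast cell markers (3 of 4) were also called lower, with sums of 67.8 to 80.3 FPKM in Young-TBI and 110 to 132 FPKM in Young-CON, as were T and NK cell markers (3 of 6), with sums of 18.9 to 26.8 FPKM in Young-TBI and 31.2 to 34.8 FPKM in Young-CON. The part of these cell types in the values of the members was not tested.

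In aged mice, injury again changed none of the 10 members at an adjusted p under 0.05, against 0.323% of all genes. All 10 log2 changes were negative, with a median of -0.23 against -0.02 over all genes. Of the 10 members, 2 had an unadjusted p under 0.05, as did 2810 of all genes (23.9%). No member had groups that did not overlap, against 22.2% of all genes. Mmp8 had 447, 499 and 438 FPKM in Aged-TBI, against 483, 696 and 684 in Aged-CON, and the lowest Aged-CON value was that of Aged-CON 1. Its log2 change was -0.41 (95% interval -0.71 to -0.11, adjusted p 0.128). Mmp9 had 625, 611 and 633 FPKM in Aged-TBI, against 627, 940 and 890 in Aged-CON, a change of -0.37 (95% interval -0.68 to -0.06, adjusted p 0.151). Ngp had 9214, 8996 and 9051 FPKM in Aged-TBI, against 8665, 11754 and 11967 in Aged-CON. Padi4 had 111, 105 and 120 FPKM in Aged-TBI, against 104, 166 and 167 in Aged-CON, a change of -0.34 (95% interval -0.69 to 0.01, adjusted p 0.214). Cd177 had 590, 532 and 558 FPKM in Aged-TBI, against 518, 727 and 733 in Aged-CON, a change of -0.22 (95% interval -0.50 to 0.06, adjusted p 0.321). For these genes the value of Aged-CON 1 lay at or below the Aged-TBI values, or among them, while Aged-CON 2 and 3 lay above all of them.

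Left out of the fit, Aged-CON 1 changed these counts. Without it 8 of the 10 members fell in Aged-TBI relative to Aged-CON: Mmp8 by 0.58 (adjusted p 0.00419), Padi4 by 0.57 (0.00413), Mmp9 by 0.55 (0.00452), Lcn2 by 0.40 (0.00963), Ngp by 0.38 (0.0112), Cd177 by 0.38 (0.0112), Ltf by 0.36 (0.0227) and Camp by 0.26 (0.045). Chil3 and Olfm4 were not called. Leaving out any other single sample called 0 members. Aged-CON 1 was singled out for its values, so the calls without it are a description and no independent support. Over all genes 3266 were called without this sample, against 38 with it. With all 12 samples and the erythroid covariate, 0 members were called and 8 of the 10 log2 changes had a positive sign, such as 0.06 for Ngp, while Mmp8 and Mmp9 stayed negative at -0.06 and -0.05. Erythroid markers summed to 4141 to 4382 FPKM in Aged-TBI and 1886 to 3641 FPKM in Aged-CON. Of them, 12 of 13 were higher at an unadjusted p under 0.05 and 0 were called. A difference in erythroid level and an effect of injury cannot be told apart in these aged samples.

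**Figure D3:**
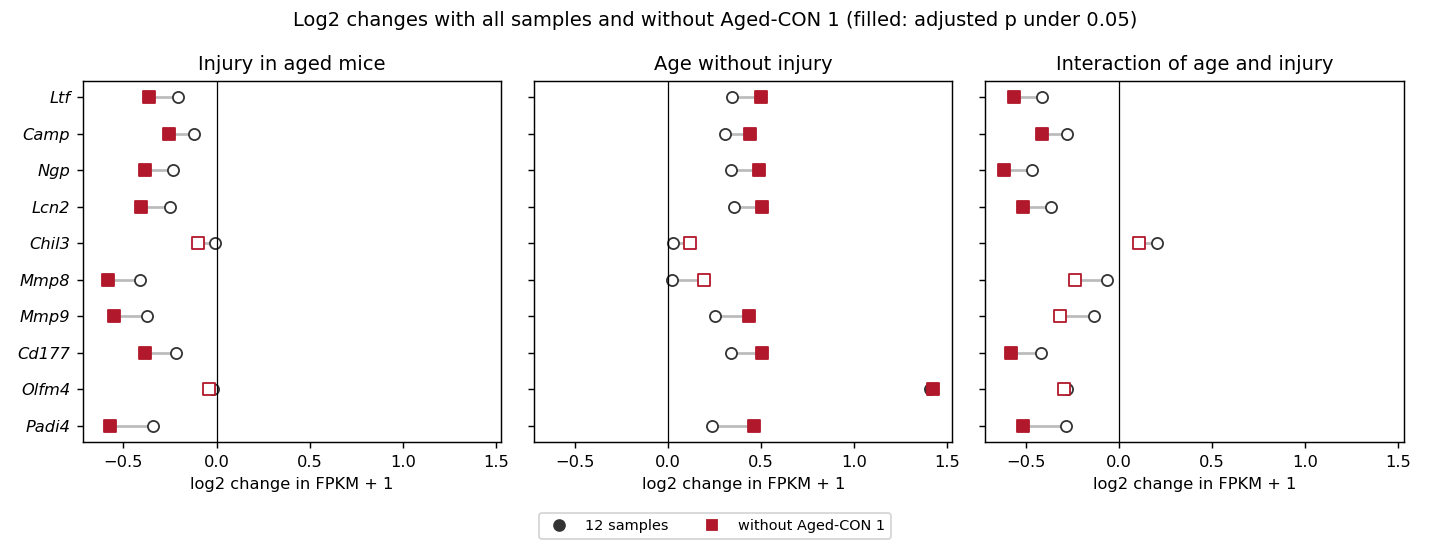
Log2 changes of the 10 granule genes in 3 comparisons with all 12 samples (circles) and without Aged-CON 1 (squares). Filled symbols passed an adjusted p of 0.05; with all samples the only filled circle is Olfm4 for age without injury, and without Aged-CON 1 there are 8, 8 and 6 filled squares in the 3 panels.

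The log2 change of Mmp8 was negative at both ages and passed the test at neither, and the effect of injury averaged over ages was computed after these values had been seen. It was -0.38 for Mmp8 (95% interval -0.59 to -0.17, adjusted p 0.0477), and Mmp8 was the only member called, against 5% of all genes. Mmp9 had -0.30 (adjusted p 0.0973). The call for Mmp8 was lost in 10 of the 12 fits that left out 1 sample (adjusted p 0.0697 to 0.111), without the filter on low values (0.0903), without the variance trend (0.0561) and after rescaling (0.0515). With the erythroid covariate the change was -0.23 (adjusted p 0.0469). It is therefore a description of a contrast chosen for its values.

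The 9 members other than Olfm4 were not called by age in controls, though all 10 log2 changes were positive with a median of 0.32 against -0.05 over all genes. By an unadjusted p under 0.05, 6 of the 10 passed, as did 2256 of all genes (19.2%). Groups did not overlap for 1 member, Olfm4, against 20.4% of all genes. Lcn2 had 3546, 4886 and 4830 FPKM in Aged-CON, against 3496, 3638 and 3140 in Young-CON. Its log2 change was 0.36 (95% interval 0.07 to 0.64, adjusted p 0.162). Ltf had 2459, 3410 and 3361 FPKM in Aged-CON, against 2476, 2620 and 2121 in Young-CON, a change of 0.34 (0.05 to 0.64, adjusted p 0.191). Camp had 3992, 5087 and 5500 FPKM in Aged-CON, against 3889, 4247 and 3585 in Young-CON, a change of 0.31 (adjusted p 0.201). In each of these genes Aged-CON 1 lay within the range of Young-CON, and Aged-CON 2 and 3 lay above it. Without Aged-CON 1 8 members were called higher, Olfm4 among them and Chil3 and Mmp8 not, with log2 changes of 0.44 to 0.51 for the 7 other than Olfm4. That fit called 1675 of all genes, 590 of them higher, against 586 with all samples. Leaving out any other single sample called Olfm4 alone among the members. With the erythroid covariate 5 members and 979 of all genes were called. The 5 were Olfm4, Lcn2 at 0.35, Cd177 at 0.33, Ngp at 0.33 and Camp at 0.30.

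After injury, Olfm4 was the one member called by age. The median log2 change was -0.02 against -0.05 over all genes, with 4 positive and 6 negative values. Groups did not overlap for 2 members, Olfm4 and Mmp9, against 40% of all genes. Mmp9 had 625, 611 and 633 FPKM in Aged-TBI, against 609, 539 and 571 in Young-TBI, a log2 change of 0.12 (95% interval -0.19 to 0.43, adjusted p 0.62). Ngp had a change of -0.13 (95% interval -0.42 to 0.17) and Camp of 0.03 (95% interval -0.24 to 0.30). These intervals do not show that the ages were alike. With the erythroid covariate all 10 changes were positive, among them 0.50 for Chil3, 0.48 for Mmp9, 0.37 for Padi4 and 0.34 for Mmp8. Olfm4 was again the only call. The erythroid levels of Aged-TBI all lay above those of Young-TBI, so this covariate and age cannot be told apart here.

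The test of whether injury acted differently by age called 0 of the 10 members, against 0.195% of all genes. Of the members, 9 had negative values, meaning a more negative log2 change with injury in aged than in young mice. The median was -0.28 against 0.02 over all genes. Of the 10 members, 2 had an unadjusted p under 0.05 (Ngp and Cd177), as did 2356 of all genes (20.0%). Ngp had -0.46 (95% interval -0.88 to -0.05, adjusted p 0.213), Cd177 had -0.42 (adjusted p 0.236) and Ltf had -0.41 (adjusted p 0.256). Without Aged-CON 1, 6 members were called: Ngp at -0.62, Cd177 at -0.58, Ltf at -0.56, Lcn2 at -0.52, Padi4 at -0.51 and Camp at -0.41. That fit called 2104 of all genes, against 23 with all samples. Leaving out any other single sample called 0 members. With the erythroid covariate 0 members were called.

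**Figure D4:**
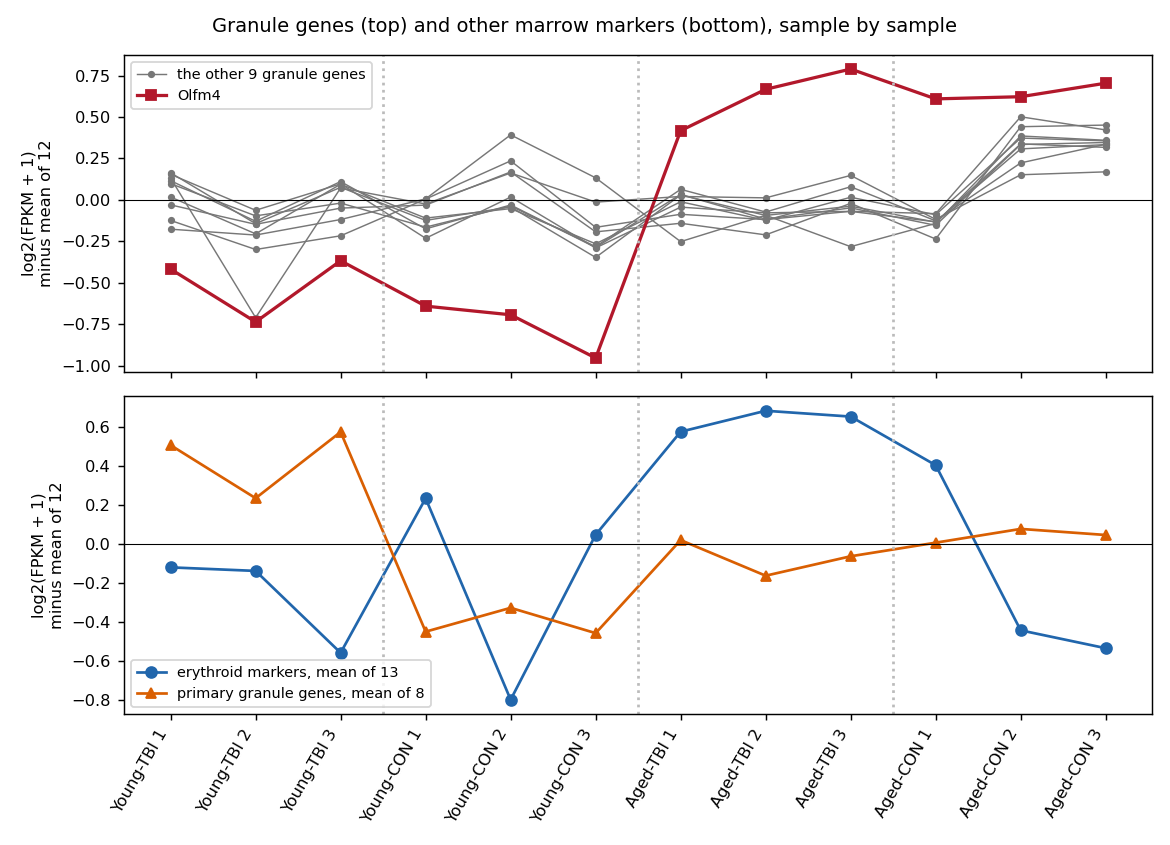
Log2(FPKM + 1) in each sample minus the mean of the 12 samples, for the granule genes in the upper panel (Olfm4 in red, the other 9 in grey) and for the means of 13 erythroid markers and 8 primary granule genes in the lower panel. Aged-CON 2 and 3 lie above the mean for all the grey genes, and Aged-CON 1 lies below it.

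Ratios within a sample do not depend on the scaling of that sample. They were chosen after the values were seen and are given without a test. The log2 ratio of Mmp8 to Ngp was -4.39 ± 0.09 in Young-TBI and -3.81 ± 0.10 in Young-CON. It was -4.30 ± 0.11 in Aged-TBI, against -4.12 ± 0.04 in Aged-CON (SD, n = 3 each). In young mice the Young-TBI ratios lay between -4.49 and -4.31, below all Young-CON ratios, which lay between -3.92 and -3.73. In aged mice the ratios lay between -4.37 and -4.17 in Aged-TBI, below all Aged-CON ratios, which lay between -4.17 and -4.08. The gap in aged mice is less than the rounding of these values at its edge. For injury in young mice Mmp8 had a log2 change of -0.35 and Ngp of 0.23, so the gap between their ratios is no separate result. The share of gene pairs that separate in this way was not counted. The log2 ratio of Olfm4 to Ltf was -4.42 ± 0.24 in Aged-CON and -5.50 ± 0.07 in Young-CON, and -4.23 ± 0.24 in Aged-TBI and -5.44 ± 0.09 in Young-TBI. A ratio shows unequal change and not which gene changed.

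**Figure D5:**
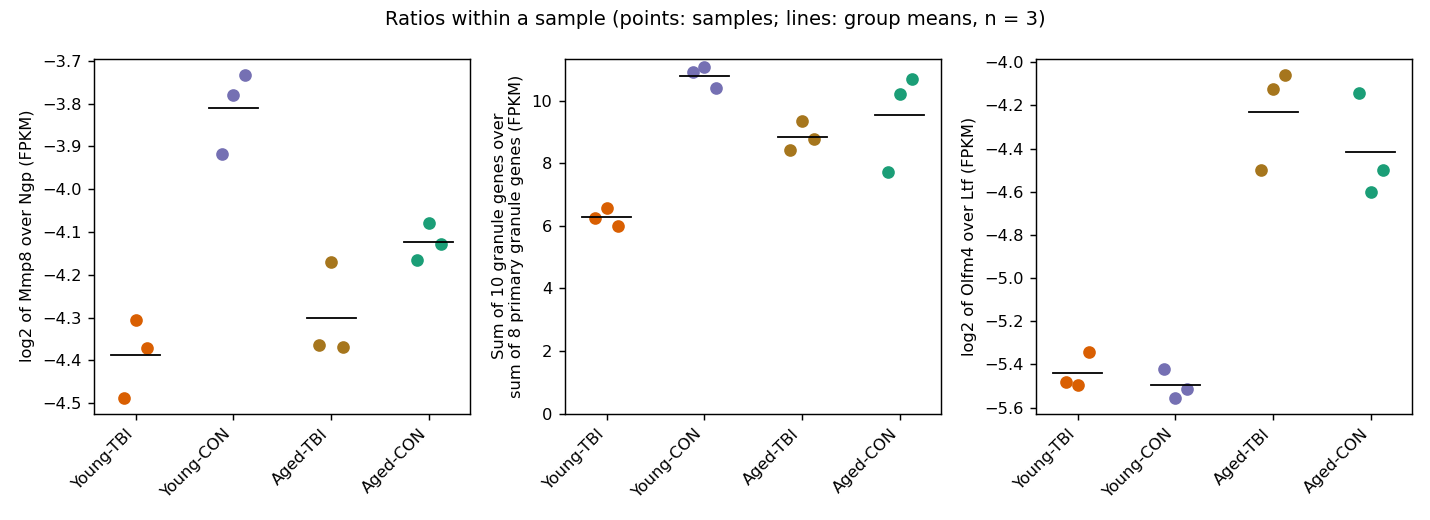
Ratios within a sample for the 4 groups, with points for samples and lines for group means (n = 3). The panels show log2 of Mmp8 over Ngp, the sum of the 10 granule genes over the sum of 8 primary granule genes on a linear axis from 0, and log2 of Olfm4 over Ltf; the second averages 6.28 in Young-TBI and 10.8 in Young-CON.

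Primary granule genes, which precede the secondary granule genes in maturation, moved with injury in young mice. Of 8 tested, 7 were called higher in Young-TBI relative to Young-CON, with Mpo, myeloperoxidase, at 0.85 and Elane, neutrophil elastase, at 0.84 on the log2 scale. In aged mice 0 were called for injury. In age without injury 6 were higher and in age after injury 7 were lower, and the interaction called 6 lower. These interaction calls did not hold in every fit. No gene at all was called for the interaction without Young-TBI 1, Young-TBI 3, Young-CON 1, Young-CON 3, Aged-TBI 3 or Aged-CON 2. The same was true with the replicate number as a block. The other fits that left out 1 sample called from 1 gene (without Aged-CON 3) to 2104 genes (without Aged-CON 1). A fit with fewer samples or more terms can lose calls, so these losses do not show that 1 sample made them. With the erythroid covariate 0 genes were called lower. The summed members stood at 6.28 ± 0.29 times the summed primary granule genes in Young-TBI and 10.8 ± 0.36 times in Young-CON. The same ratio was 8.85 ± 0.47 for Aged-TBI and 9.54 ± 1.61 for Aged-CON (SD, n = 3 each).

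Other genes of the specific and gelatinase granules were counted from lists. Among 10 tested soluble granule genes, Fcnb, a ficolin, was higher by 0.68 and Qsox1, a sulfhydryl oxidase, by 0.53 in Young-TBI relative to Young-CON, and 0 were called for injury in aged mice. Fcnb was higher by 0.52 in Aged-CON relative to Young-CON, and Qsox1 was lower by 0.50 in Aged-TBI relative to Young-TBI. Among 12 granule membrane genes Clec12a, an inhibitory lectin receptor, was higher by 0.36 and Slc11a1, the metal ion transporter Nramp1, fell by 0.55 in Young-TBI relative to Young-CON. Slc11a1 was higher by 0.40 in Aged-TBI relative to Young-TBI. None of the 8 genes of the release machinery was called in any of the 5 comparisons. Of 5 tested partners and inhibitors of the members, Pecam1, whose human counterpart binds CD177, fell by 0.49 in Aged-CON relative to Young-CON and by 0.40 in Aged-TBI relative to Young-TBI. None of 8 granulocyte transcription factors was called: Cebpe had 0.31 for injury in young mice (adjusted p 0.118), -0.11 in aged mice, 0.33 for age without injury (adjusted p 0.0999) and -0.09 after injury. Cebpa, a factor of early myeloid commitment, had 0.15 and 0.17 for injury in young and in aged mice, Gfi1, a repressor needed for neutrophils, had 0.29 and 0.01, and Spi1, which encodes PU.1, had 0.09 and -0.30. Alas2, the erythroid enzyme of heme synthesis, had -0.42 and 0.67. Ptx3, Arg1, Timp1 and Slc22a17 were below the filter. None of 9 tested markers of mature neutrophils was called in the 5 comparisons. S100a8, a calcium-binding protein of neutrophils, had 0.15 for injury in young mice and -0.24 in aged mice, and Csf3r, the G-CSF receptor, had -0.22 and -0.57.

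The genes whose pattern over the 12 samples was most like the mean standardised level of the members were found among 8299 genes with a mean of at least 5 FPKM. They were Itgam (r 0.979), Itgb2l (r 0.973), S100a8 (r 0.968), Rab3d (r 0.964) and Alox5 (r 0.963). Spearman's rho was 0.951, 0.972, 0.895, 0.902 and 0.832 in the same order. Without Aged-CON 2 and 3, the samples farthest from the median, r was 0.909, 0.941, 0.867, 0.869 and 0.843. Among the members, Olfm4 had the lowest r with the mean of the others (0.444), and Lcn2 the highest (0.962). These values are descriptions over samples that share groups and scaling.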

How the data were processed

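The authors deposited FPKM per gene symbol for all 12 samples, and FPKM are not counts. The labels' protocols name TRIzol extraction and a SMARTER mRNA-seq kit. Per the submitters' processing notes, the builds were GRCm38 and mm10, and R 4.3.3 was used. For the aligner, counter, annotation and strand setting, the tools were not given in the sources used here. Low values fell on whole multiples of 1 fragment, so whole fragments could be recovered for 11764 of 11767 tested genes within a tolerance of 0.05. A gene was tested where 3 or more samples reached 1 FPKM, on log2(FPKM + 1), which understates changes of low genes, with limma 3.58.1 in R 4.3.3, 1 mean per group, all 12 samples in 1 fit and a variance trend. Tests were two-sided. Adjusted p-values are Benjamini-Hochberg over all tested genes, and a gene is called at an adjusted p under 0.05. The 12 pairs of samples within groups had chi-square values of 4.47 to 47.9 per degree of freedom over recovered fragments, above counting noise, and each sample was counted separately. Members and lists were chosen with earlier results of these data known. Genes named are the 10 members, list genes called (up to 6 per list and comparison, by smallest p, of which only some are printed), a fixed set of 9 reference genes, and the 5 genes most like the members. Coordinates are GENCODE M21 on GRCm38 and promoters RefSeq on GRCm38.p6. The fit was tested on simulated data. The averaged contrasts, the within-sample ratios, the motifs and the fit without Aged-CON 1 and Young-CON 2 together were chosen after seeing the data. Leaving out each sample in turn was planned. The weight given to the fit without Aged-CON 1 was decided after its values were seen. Alternatives were other pseudocounts, filters and scalings, no variance trend, sample weights, fits of 2 groups alone, a replicate block, an erythroid covariate, voom on recovered fragments and leaving out samples.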

Additional observations from a re-analysis of the deposited data

How the results depend on the processing

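Each result was recomputed under up to 25 alternatives. Both calls of Olfm4 by age, and the single call among members for age after injury, held in all of them. Sample weights called 2 members for injury in young mice, 7 for injury in aged mice, 8 for age without injury, 6 for the interaction, 3 for averaged injury and 6 for averaged age. The counts over all genes were then 1595, 3557, 2508, 2740 for age after injury, 2977, 2724 and 2175, and Padi4 turned to 0.029 for injury in young mice. The erythroid covariate called 1 member for injury in young mice, 5 for age without injury and 7 for averaged age, and over all genes 1286 and 11 for injury in young and aged mice, 979 and 133 for age without and after injury, and 2 for the interaction. With it, signs turned for injury in aged mice in Ltf (0.051), Camp (0.11), Ngp (0.063), Lcn2 (0.0057), Chil3 (0.24), Cd177 (0.073), Olfm4 (0.052) and Padi4 (0.034). Signs also turned for age after injury in Ltf (0.22), Ngp (0.20), Lcn2 (0.28), Mmp8 (0.34), Cd177 (0.25) and Padi4 (0.37), and for the interaction in Mmp8 (0.33), Mmp9 (0.23) and Padi4 (0.14). Without Aged-CON 1 and Young-CON 2 together, chosen after seeing the data, the members called were 1 for injury in young mice, 8 in aged mice, 9 for age without injury, 8 for the interaction, 3 for averaged injury and 8 for averaged age. All genes called were then 902 for injury in young mice, 3527 in aged mice, 2730 and 2571 for age without and after injury, 3043 for the interaction and 2150 for averaged injury. Padi4 turned to 0.036 for injury in young mice. For averaged age, the alternatives other than leaving out 1 sample called from 855 to 2175 of all genes, the erythroid covariate and this fit among them. Fits of the 2 groups alone, which have fewer samples, called 390 and 11 genes for injury in young and aged mice and 284 and 2261 for age without and after injury. Without a filter the counts were 17 for injury in aged mice and 2 for the interaction, and without the variance trend 21 and 6; in both, and after rescaling, 0 members were called for averaged injury. The interaction called 40 genes with the stricter filter, 11 after rescaling and 44 with voom on recovered fragments. Quantile normalization turned Camp to 0.052 for injury in aged mice and 0.026 for the interaction, Mmp8 to 0.010 and 0.0036 for age after injury and the interaction, Chil3 to -0.017 for age without injury and Ltf to 0.035 for age after injury. It holds Ngp and Lcn2 at 0 change by construction in several comparisons. The causes were not tested.

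Leaving out 1 sample, or the 2 named above,, members called ran from 0 to 1 for injury in young mice, 0 to 8 for injury in aged mice, 1 to 9 for age without injury, 0 to 8 for the interaction, 0 to 3 for averaged injury and 1 to 8 for averaged age. All genes called ran from 160 to 970, 11 to 3527, 280 to 2730, 314 to 2571 (age after injury), 0 to 3043, 250 to 2593 and 734 to 1486 in the same order. Signs changed for Chil3 (-0.36 to 0.060, -0.10 to 0.043, -0.024 to 0.18, -0.041 to 0.38 and -0.068 to 0.35 in the 5 comparisons), Padi4 (-0.14 to 0.036, injury in young mice), Olfm4 (-0.10 to 0.083, injury in aged mice), Mmp8 (-0.068 to 0.30 for age without injury, -0.34 to 0.028 for the interaction), and Lcn2 and Camp (-0.095 to 0.054 and -0.016 to 0.081, age after injury). The replicate numbers showed no general pairing: 3 of 18 same-number pairs had a correlation of deviations over 0.1 (range -0.22 to 0.29). The highest were 0.29 (number 1) and 0.235 (number 2), both between Young-CON and Aged-CON. A sample correlated best with its own number in 11 of 36 comparisons. With so few samples a group, this check cannot exclude a pairing or a shared batch. With the replicate block the interaction called 0 genes, against 23 without it. Counting error at this depth is below the spread between samples for the members, so the number of samples limits precision.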
